A study of Mus musculus with 2 samples.

Results

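The genes described here are 10 immediate early genes, Fos, Fosb, Jun, Junb, Jund, Egr1, Egr2, Ier2, Nr4a1 and Atf3. They were taken by name, as every non-control probe whose gene name or transcript accession belongs to one of them. Each of the 10 was read by 1 probe, and together they are 10 of the 34786 genes or transcripts on the array. The RNA came from C57BL/6 bone marrow LSK cells (Lineage-Sca-1+c-Kit+), a sorted population of stem cells and early progenitors. The DAC array came from mice treated with decitabine, a cytosine analogue that blocks DNA methyltransferases, and the PBS array from mice given phosphate-buffered saline. Both arrays came from secondary recipients of Tet2KD/KD; Ezh2delta/delta marrow with a myelodysplastic syndrome (MDS), 10 weeks after transplantation and 7 weeks after treatment, so both groups carry both altered genes and neither is a wild-type control. The labels name no marker that parts donor from host cells in the sort. There was 1 array per group. The number of mice per array, the decitabine schedule and the handling time before lysis are not given in the sources used here.

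Immediate early genes are transcribed within minutes of a signal reaching the cell, without the need for new protein synthesis, and their mRNAs are short-lived. Growth factor, cytokine and stress signals reach them through MAP kinases, the serum response factor SRF with its ternary complex partners, and CREB. Fos and Jun proteins pair to form AP-1, a dimeric transcription factor, while Egr1 and Egr2 are zinc finger factors and Nr4a1 is an orphan nuclear receptor. In mouse, Egr1 and the Nr4a receptors restrain the proliferation of haematopoietic stem cells, and loss of Junb in the myeloid lineage leads to a myeloproliferative disease. The same genes are also known to be switched on while tissue is dissociated and sorted.

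Values are the processed intensity of the scanner software, already background-subtracted, given first as read and not scaled between the arrays. On the DAC array 31601 probes (56.8%) were well above background, against 27007 (48.5%) on the PBS array. Log2 differences are DAC minus PBS, and each array was first divided by its 75th percentile, taken over the 25404 probes that both arrays read well above background. This scaling lowers every DAC minus PBS difference by 0.40 (log2). With 1 array per group no difference has a replicate check, and no p-value is given. The errors given are SDs for such a difference, built from repeated spots of a probe within each array. They were 0.32, 0.15 and 0.09 for genes of low, middle and high signal (3 bands of equal gene number). They cover variation between spots of an array only, and leave out differences between the arrays in labelling, hybridisation or scanning. Fewer cells that carry an mRNA and less mRNA per cell cannot be told apart in such bulk samples.

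The 10 genes differed in direction between the arrays. Ier2, Nr4a1 and Egr1 were at least 2-fold higher on the DAC array, by 2.86-fold, 2.35-fold and 2.02-fold. All 5 Fos and Jun family genes had negative differences, between −0.92 for Fosb and −0.24 for Junb, none of them past 2-fold. Atf3 had a difference of 0.28, and Egr2 was well above background on the PBS array only. Of the 9 with a value on both arrays, 3 (33.3%) passed 2-fold higher, against 10.0% of all 18211 genes so measured, and 0 were at least 2-fold lower, against 6.84%. In either direction these 3 of 9 stand against 16.9% of all genes. With scaling over all probes, with median centring and with the series matrix values the split was 2 higher (Ier2 and Nr4a1) and 1 lower (Fosb). In those settings 7.30%, 7.88% and 7.30% of all measured genes were at least 2-fold higher. At least 2-fold lower were 10.2%, 9.31% and 10.1%. The median difference of the 9 was −0.24, against 0.02 for all measured genes.

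**Figure D1:**
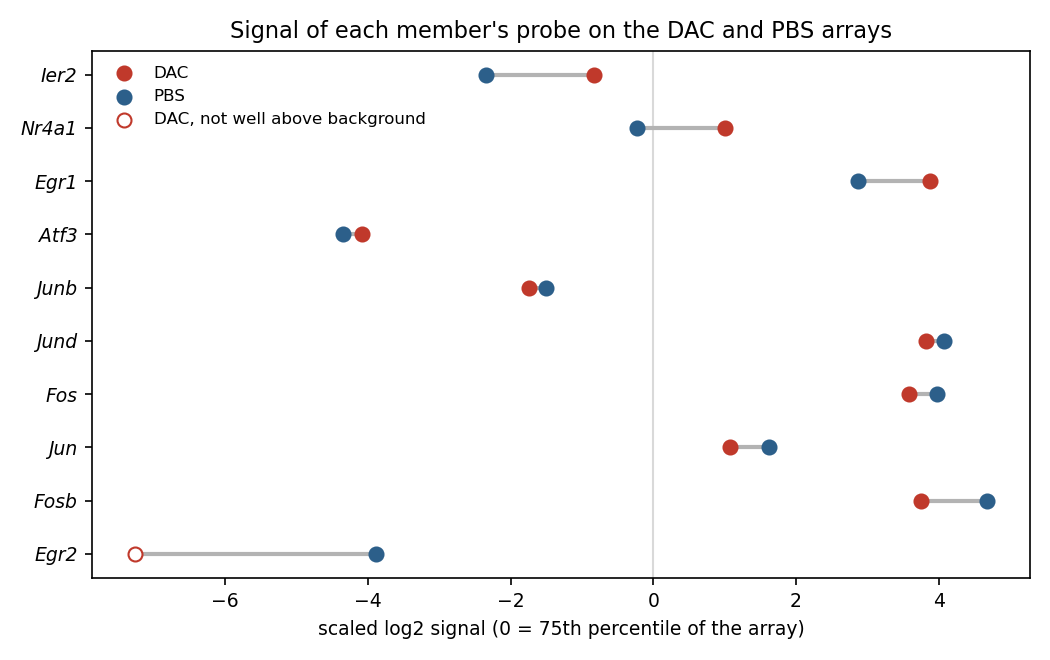
Scaled log2 signal of each gene's probe on the DAC array (red) and the PBS array (blue), with 1 array per group and genes ordered by difference, so that points are to be compared within a row only. Ier2, Nr4a1 and Egr1 lie further right on the DAC array, all 5 Fos and Jun genes further right on the PBS array, and the open point marks Egr2, which was not well above background on the DAC array.

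Ier2, which encodes a nuclear protein involved in transcriptional control, had the highest difference. Its probe lies on the minus strand at chr8:87186214-87186273 (mm9), and it is shown with that of Junb, since both genes lie on the same chromosome and differed in direction. Each probe has at least 1 reading frame without a stop codon.
Ier2 probe: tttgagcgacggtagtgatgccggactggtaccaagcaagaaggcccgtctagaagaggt
Junb probe: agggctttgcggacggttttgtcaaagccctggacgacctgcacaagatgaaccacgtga
No letter is in capitals because no motif is marked, and the Junb probe lies on the minus strand at chr8:87501881-87501940 (mm9). Ier2 had an intensity of 457 on the DAC array, against 121 on the PBS array. The DAC spot was thus the brighter one by a wide margin even before scaling. Its log2 difference was 1.52 ± 0.15 (SD from repeated spots), and 4.22% of all measured genes had a difference at least as high. Ier2 lay in the middle band of signal, where 13.2% of genes were at least 2-fold higher. With normexp background correction the difference was 1.10, and with no background subtraction 1.07, still past 2-fold.

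Nr4a1, the receptor also known as Nur77, had an intensity of 1635 on the DAC array, against 529 on the PBS array. Its log2 difference was 1.23 ± 0.09 (SD from repeated spots). Over 12 other processing settings it ran between 1.03 and 1.27, so it was past 2-fold in all 12. Settings that change only the choice of probe or the filter on dim probes cannot move a gene read by 1 probe. Nr4a1 and Egr1 lay in the high band of signal, where 2.65% of genes were at least 2-fold higher.

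Egr1, a factor that in mouse keeps stem cells quiescent and in the marrow, had an intensity of 11979.9 on the DAC array, against 4500.5 on the PBS array. It was among the bright genes on these arrays, and the DAC spot was the brighter. Its log2 difference was 1.02 ± 0.09 (SD from repeated spots), just past 2-fold. It was past 2-fold in 9 of these 12 settings and had differences of 0.81 to 0.86 in the other 3, which are scaling over all probes, the series matrix values and median centring. The probe lies at chr18:35024395-35024454 (mm9, plus strand).

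Egr2, a related zinc finger factor, was dim. It had an intensity of 5.27 on the DAC array, a surrogate that the software sets for a spot not above background, and of 41.7 ± 6.26 on the PBS array, where the error is the software's own for that spot. The PBS spot was called well above background and the DAC spot was not. Against the detection limit of the DAC array, the lowest signal there that passed this call, Egr2 was at least 2.44-fold lower. In all, 530 of 34786 genes (1.52%) were found on the PBS array only with a bound of at least 2-fold, and 3.61% on the DAC array only, among them 0 of the 10 members. The raw mean intensities of the Egr2 spots were 74.9 on the DAC array, against 109 on the PBS array, and with normexp correction, which sets no surrogate, the difference was −0.91, short of 2-fold.

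Fos, the classic AP-1 partner of Jun, was the best measured of the 10 genes, because its probe (chr12:86817900-86817959, mm9, plus strand) is printed 10 times on each array. The 10 spots had intensities of 9112 at the lowest, 9762 at the median and 10387 at the highest on the DAC array, and of 8894 at the lowest, 9897 at the median and 10211 at the highest on the PBS array. The spots of the arrays overlapped over nearly their whole range. Spot by spot, the scaled difference was −0.39 ± 0.03 (SD over 10 spot positions on 1 array pair), below 0 at all 10 positions. Without scaling the difference was 0.01, so −0.39 is about the size of the scaling itself.

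**Figure D2:**
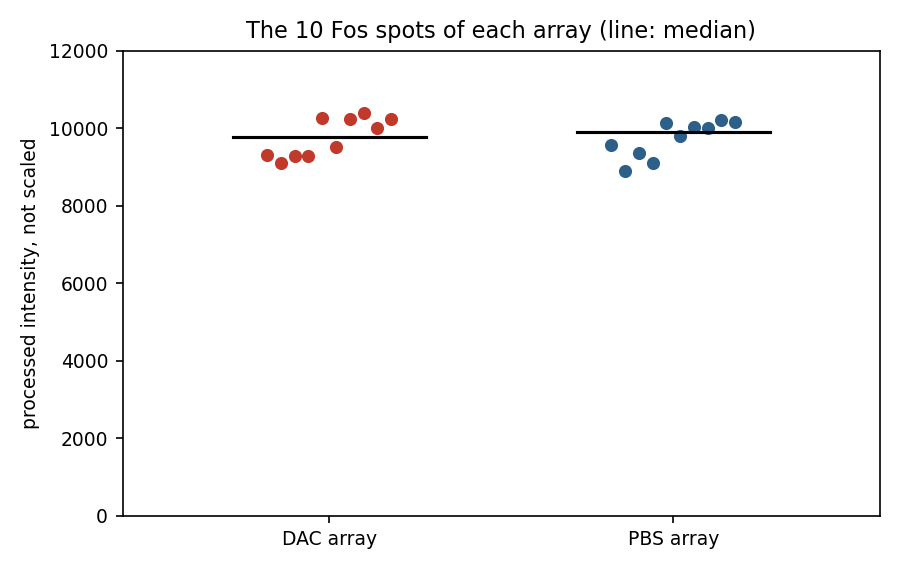
Processed intensity of the 10 Fos spots on the DAC array (red) and the PBS array (blue), before scaling, with the median as a line; the spots are repeats on 1 array and not replicates of a condition. Both arrays lie between 8894 and 10387, with medians of 9762 for DAC and 9897 for PBS.

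Fosb, a Fos family partner of Jun proteins with a more restricted induction, had an intensity of 10990.4 on the DAC array, against 15823 on the PBS array. It was the only one of the Fos and Jun genes with a clearly dimmer DAC spot before scaling. Its log2 difference was −0.92 ± 0.09 (SD from repeated spots), and 7.98% of all measured genes had a difference at least as low. It passed 2-fold lower in 3 of the 12 settings, at −1.12 with scaling over all probes and with the series matrix values and at −1.08 with median centring. Its probe lies at chr7:19888168-19888227 (mm9, minus strand).

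The Jun family had smaller differences. Jun, the main DNA-binding partner of Fos, had an intensity of 1709 on the DAC array, against 1905 on the PBS array, and a log2 difference of −0.55 ± 0.09 (SD from repeated spots). Junb, which dampens Jun activity, had 243 on the DAC array, against 218 on the PBS array, and a difference of −0.24 ± 0.15. Jund, the member found in resting cells, had 11509 on the DAC array, against 10441 on the PBS array, and a difference of −0.26 ± 0.09. Junb and Jund were thus slightly brighter on the DAC array as read and slightly lower after scaling. Without scaling, their differences were 0.16 and 0.14, and that of Jun was −0.16. The probes of Jun and Jund lie at chr4:94716928-94716987 (minus strand) and chr8:73224436-73224495 (plus strand), both in mm9.

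Atf3, a stress-induced bZIP factor that binds with Jun proteins, was dim. It had an intensity of 48.2 ± 7.18 on the DAC array, against 30.3 ± 5.61 on the PBS array, with the software's own error for each spot. Its log2 difference of 0.28 was smaller than the 0.32 expected from repeated spots at such low signal. It changed sign in 3 settings, with −0.21 under quantile normalization, −0.07 with normexp correction and −0.11 with no background subtraction. No difference was detectable for Atf3 at this signal. Its probe lies at chr1:192994547-192994606 (mm9, minus strand).

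**Figure D3:**
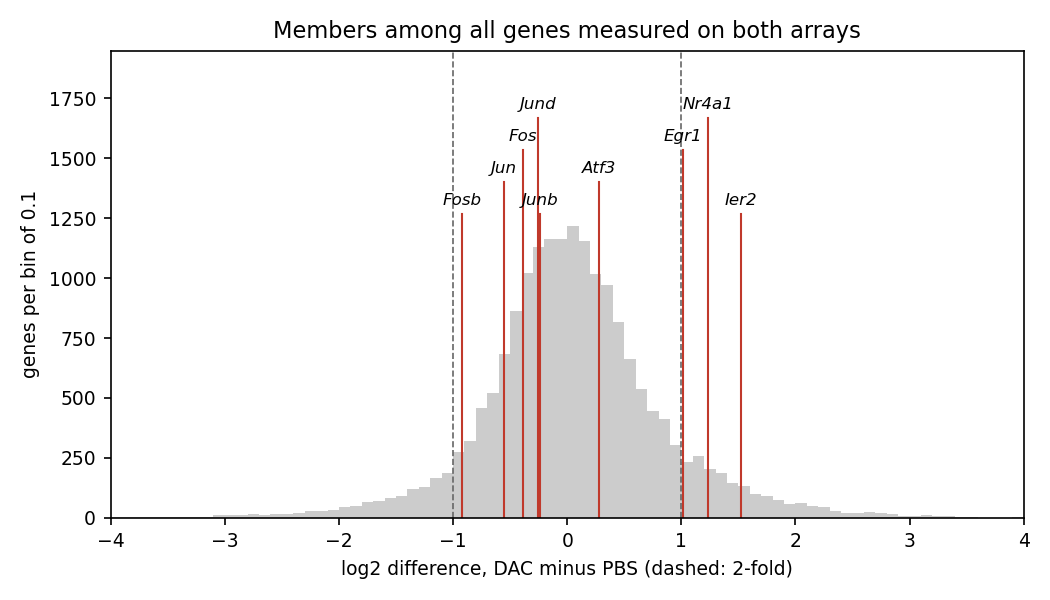
Histogram of the log2 difference, DAC minus PBS, over the 18211 genes measured on both arrays, with the 9 measured immediate early genes as red lines and 2-fold as dashed lines. Ier2, Nr4a1 and Egr1 lie beyond the upper dashed line, and Fosb lies just inside the lower one.

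Gaps between the genes do not depend on any constant scaling of the arrays. They do change with the background correction and with scaling that varies with signal. The highest and the lowest of the 9 differences, those of Ier2 and Fosb, were 2.44 apart (log2), so the ratio of Ier2 to Fosb signal was 5.43-fold higher on the DAC array. With normexp correction Ier2 had 1.10 and Fosb −0.88, a narrower gap. The ratio of Egr1 to Fos signal was 2.65-fold higher on the DAC array, with a gap of 1.41 ± 0.13 (SD from repeated spots). In descending order the differences were those of Ier2, Nr4a1, Egr1, Atf3, Junb, Jund, Fos, Jun and Fosb. Between neighbours in that order, the gap exceeded 2 of these SD only between Egr1 and Atf3 (0.74 ± 0.33) and between Jun and Fosb (0.37 ± 0.13). Ier2 and Nr4a1 were 0.29 ± 0.17 apart, Nr4a1 and Egr1 0.22 ± 0.13, and Junb and Jund 0.02 ± 0.17. Atf3 and Junb were 0.52 ± 0.35 apart, Jund and Fos 0.13 ± 0.13, and Fos and Jun 0.16 ± 0.13.

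**Figure D4:**
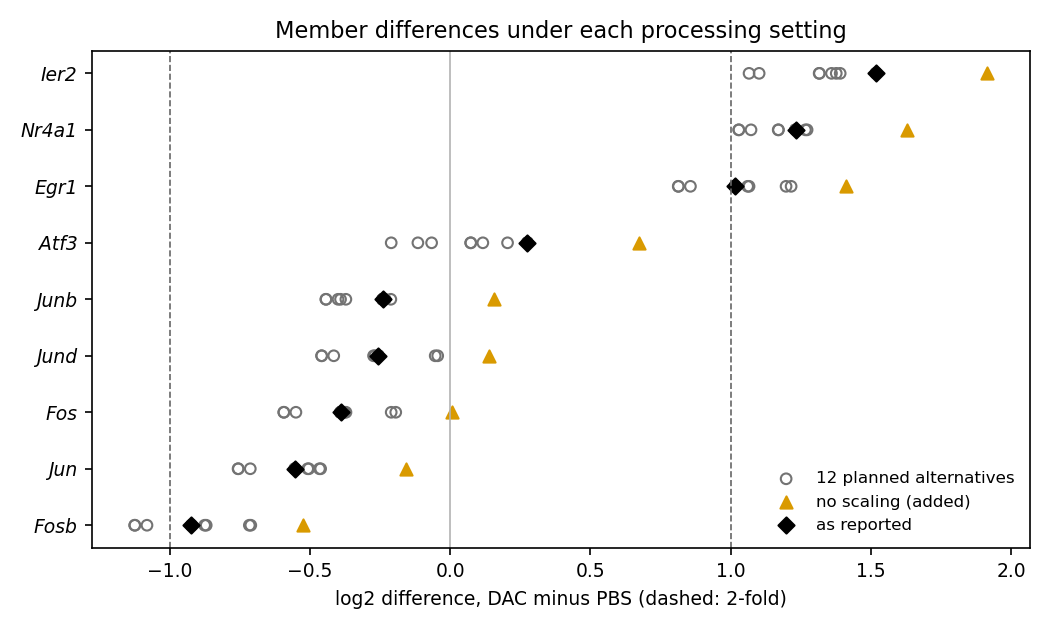
Log2 difference, DAC minus PBS, of each gene measured on both arrays as reported (black diamonds), under 12 other processing settings (open circles) and with no scaling between the arrays (triangles, added after the data were seen). Ier2 and Nr4a1 stay right of the 2-fold line in every setting shown, while Fos, Junb and Jund are left of 0 under those 12 settings, where measured, and at or right of 0 without scaling.

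Upstream windows of 250 bases before the start of transcription are shown for a gene that was higher on the DAC array (Nr4a1), one with a negative difference (Fosb) and one with equal intensity on both arrays (Fos). They are RefSeq sequences of the build GRCm38.p6, and 8 of the 10 genes were matched to such a window, Egr1 and Ier2 being the others. Capitals mark TGACG on either strand, the half-site of the cAMP response element that CREB and ATF proteins bind.
Nr4a1 (chr15:101266596-101266845, plus strand): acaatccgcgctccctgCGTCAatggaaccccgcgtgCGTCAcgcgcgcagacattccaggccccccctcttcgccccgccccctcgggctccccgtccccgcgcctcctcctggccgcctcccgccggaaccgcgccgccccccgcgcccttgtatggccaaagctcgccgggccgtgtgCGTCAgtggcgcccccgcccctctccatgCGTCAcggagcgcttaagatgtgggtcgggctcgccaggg
Fosb (chr7:19310046-19310295, minus strand): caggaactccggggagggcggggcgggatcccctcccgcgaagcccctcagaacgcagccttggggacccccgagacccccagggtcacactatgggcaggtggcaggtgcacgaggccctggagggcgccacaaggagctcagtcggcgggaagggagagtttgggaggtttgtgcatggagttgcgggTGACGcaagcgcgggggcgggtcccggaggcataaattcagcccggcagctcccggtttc
Fos (chr12:85473640-85473889, plus strand): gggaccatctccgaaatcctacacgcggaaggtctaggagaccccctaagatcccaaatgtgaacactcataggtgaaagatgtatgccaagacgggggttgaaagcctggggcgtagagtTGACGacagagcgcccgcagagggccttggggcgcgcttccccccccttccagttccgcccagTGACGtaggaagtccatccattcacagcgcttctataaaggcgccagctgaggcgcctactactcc
TGACG occurred 4 times in the Nr4a1 window, 2 times in that of Fos and 1 time in each of those of Fosb, Junb and Atf3, with 0 in those of Jun and Jund. Egr2 has 5 windows, and 3 that overlap each other held it 2 times each, so that 1 site may be counted in several. Over all 32851 windows of this length, 17.8% held it at least 1 time and 0.137% at least 4 times. The full element TGACGTCA, which contains TGACG, was in none of the windows of these 8 genes and in 1.55% of all. The AP-1 element TGACTCA was in none of them and in 4.46% of all. The CArG box, bound by SRF, was found among them in windows of Egr2 only, 1 time in each of 4 windows, 3 of which are those that overlap, against 1.47% of all windows. The Egr element GCGGGGGCG was in the windows of Nr4a1 and Fosb, 1 time each, and in 2.57% of all. Each motif was searched on both strands, and a match is a run of letters, not evidence of binding. Sites further than 250 bases upstream were not searched, nor were any of Egr1 and Ier2. A window without a match therefore does not show that the gene lacks the element.

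Other immediate early genes went both ways as well. Of 27 further immediate early transcription factors 20 were measured, with a median difference of 0.44. Of these, 5 were at least 2-fold higher (against 10.0% of all measured genes), 5 at least 2-fold lower (against 6.84%) and 10 between. The higher ones were the clock gene Per1 (2.67, 1 of 2 probes measured), Nfil3 (1.71), Cebpd (1.57), Csrnp1 (1.03) and Srf (1.01). Both probes of Srf were above 0. With normexp correction Cebpd had 0.45, Csrnp1 0.80 and Srf 0.95, short of 2-fold. Per1 then had 1.31 and Nfil3 1.03. Cebpd and Per1 were dim on the PBS array, with intensities of 24.7 and 29.5. The lower ones were Id1 (−2.11), an inhibitor of bHLH factors, Crem (−2.07, 1 of 4 probes measured) and the Krüppel-like factors Klf2 (−1.44), Klf4 (−1.24) and Klf6 (−1.13). Id1 and Crem were dim on the DAC array, with intensities of 27.5 and 37.0, and had −1.08 and −1.16 with normexp correction. Klf2 was bright, with an intensity of 2455 on the DAC array, against 5044 on the PBS array.

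The close relatives Fosl2, Egr3 and Nr4a2 were measured on both arrays and were within 2-fold. Fosl2 had a difference of 0.41, Egr3 of 0.48 and Nr4a2 of −0.38. Egr3 had −0.01 with normexp correction, and the 2 probes of Nr4a2 went opposite ways. Fosl1 passed the background call on PBS only, and was at least 2.96-fold lower in DAC by its processed intensity. Over the other settings its smallest difference was −1.05. Egr4 passed it on DAC only, with a bound short of 2-fold, and Nr4a3 on neither array.

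Among 40 immediate early genes that encode no transcription factor, 32 were measured, with a median of 0.47. Of these, 8 were at least 2-fold higher (against 10.0% of all measured genes), 2 at least 2-fold lower (against 6.84%) and 22 between. The higher ones were the urokinase receptor gene Plaur (2.96), the pseudokinase gene Trib1 (2.56, with 2 of its 3 probes measured and both above 0), the kinase genes Sgk1 (2.05), Sik1 (1.73) and Pim1 (1.16), the mRNA decay factors Zfp36l2 (1.31) and Zfp36l1 (1.02), and Phlda1 (1.05). The lower ones were Arc (−1.78) and Nfkbiz (−1.08). Plaur, Sgk1 and Phlda1 were dim on the PBS array, with intensities of 25.8, 27.6 and 31.3. Arc was dim on the DAC array, with 49.0. With normexp correction 5 of the same 32 were at least 2-fold higher and 1 lower, with a median of 0.23. Of all genes 4.01% and 4.15% were so. Sgk1 (0.82), Zfp36l1 (0.67), Phlda1 (0.27) and Nfkbiz (−0.95) then fell short of 2-fold. Plaur had 1.45, Trib1 1.58 and Arc −1.12 with this correction. The same correction left 2 of the 20 transcription factors higher and 5 lower. Dusp1, the phosphatase that switches off MAP kinases and is usually induced together with Fos, had 7515 on the DAC array, against 11055 on the PBS array. Its difference was −0.95, and −0.94 with normexp correction. Over all settings, no scaling among them, it ran from −1.16 to −0.56. Zfp36, the mRNA decay factor also called tristetraprolin, had a difference of 0.11, Btg2 of −0.61 and Ier3 of −0.08.

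**Figure D5:**
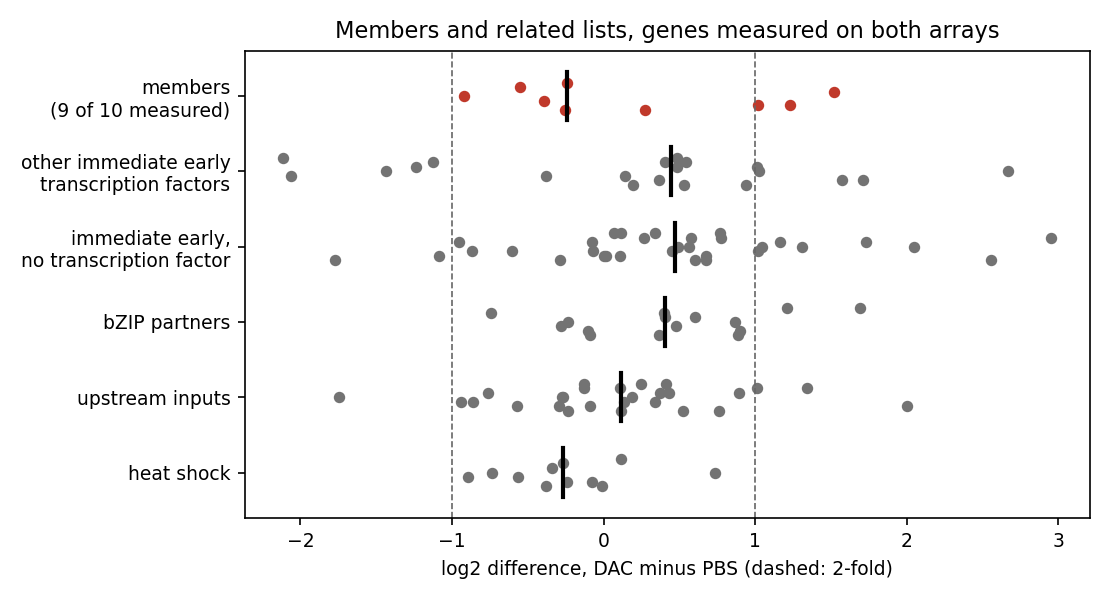
Log2 difference, DAC minus PBS, of the members (red) and of 5 related gene lists (grey), for genes measured on both arrays, with the median of each list as a black line and 2-fold as dashed lines. The members spread from −0.92 to 1.52, and both lists of further immediate early genes spread to either side of 2-fold, while all measured heat shock genes lie within it.

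Dimer partners of AP-1 and the signalling genes upstream were read as well. Of 15 measured bZIP genes, Mafg (1.69, with all 4 probes above 0) and Batf (1.21) passed 2-fold higher, against 10.0% of all measured genes. In this list 0 passed 2-fold lower, against 6.84% of all measured genes, 13 lay between, and the median was 0.41. Batf2 and Maf passed the background call on DAC only, with bounds of 2.40-fold and 2.71-fold higher by processed intensity. Their smallest differences over the other settings were 0.41 and 0.74, short of 2-fold. With normexp correction 1 bZIP gene (Mafg, 1.49) was at least 2-fold higher and 0 lower, against 4.01% and 4.15% of all genes. Batf then had 0.59. Among 27 measured inputs, 3 passed 2-fold higher (against 10.0% of all measured genes) and 1 passed 2-fold lower (against 6.84%). The other 23 lay between, and the median of the inputs was 0.11. The higher ones were the MAP kinase kinase gene Map2k1 (2.01), the ternary complex factor gene Elk4 (1.34, with all 3 probes above 0) and Srf, and the lower one was the SRF coactivator gene Mrtfa (−1.75, with its other probe opposite). With normexp correction 1 input (Elk4, 1.18) was at least 2-fold higher and 1 lower, and Map2k1 had 0.87 and Srf 0.95. Map2k1 was dim on the PBS array, with an intensity of 33.1. The kinase gene Mapk3 (−0.13), Creb1 (−0.09) and the Egr corepressor genes Nab1 (0.11) and Nab2 (0.24) were within 2-fold.

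Markers of handling stress and of other cell types were read beside these values. All 11 measured heat shock genes were within 2-fold, where 16.9% of all measured genes were not. Of the 11, 9 were below 0, and their median was −0.26, smaller in size than the 0.40 by which scaling lowers each difference. Their summed scaled signal was 121 on the DAC array, against 152 on the PBS array, in units of each array's 75th percentile. Hsp90ab1 made the largest part of this sum, with a scaled log2 signal of 5.86 on the DAC array, against 6.13 on the PBS array. The inducible chaperone genes Hspa1a and Hspb1 passed the background call on PBS only, with bounds of 42.5-fold and 4.36-fold lower in DAC, and the co-chaperone gene Bag3 on DAC only, with a bound of 5.59-fold higher, all by processed intensity. Over the other settings their smallest differences were −3.66, −1.48 and 1.28. The LSK markers Kit and Ly6a had intensities of 5080 and 1295 on the DAC array, against 3550.1 and 939 on the PBS array, and Slamf1 was above background on neither. Summed scaled signals of marker lists were 56.7 on the DAC array, against 79.2 on the PBS array for monocytes and macrophages (6 of 13 measured), 6.70 and 8.56 for neutrophils (8 of 11), 16.5 and 14.0 for B cells (7 of 8), and 8.82 and 8.79 for T and NK cells (4 of 9). They were 3.66 on the DAC array, against 5.29 on the PBS array for erythroid cells (7 of 10), and 1.75 and 1.40 for endothelial and stromal cells (3 of 8). Fcgr1, Mrc1, Mmp8, Mmp9, Ms4a1, Cd3g, Cd8a, Cdh5, Lepr and Col1a1 were above background on neither array. The monocyte and macrophage sum was mostly Itgam, with a scaled log2 signal of 5.64 on the DAC array, against 6.19 on the PBS array. The median difference of that list was 0.14, with 4 of 6 measured genes above 0, and 5 further genes passed the background call on DAC only and 0 on PBS only. Median differences were −0.16 for neutrophil, 0.30 for B cell, 0.28 for T and NK cell, −0.44 for erythroid and 0.16 for endothelial and stromal markers. The part of any of these in the differences of the 10 genes was not tested.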

How the data were processed

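One-colour arrays of 1 DAC and 1 PBS sample were used, with RNA from sorted cells amplified before Cy3 labelling, per the labels' protocols. The deposited scanner files give spot intensity values made with Agilent Feature Extraction 10.7.3.1 (protocol GE1_107_Sep09, probe positions on mm9), per the file headers. The processed intensity was background-subtracted and detrended by the authors' software, with a surrogate for spots not above background. Its spot error includes a preset multiplicative part of 10%. The deposited series matrix holds log2 values whose subtracted baseline is unknown, and served for differences only: against the processed intensity they had a slope of 1.00 and an offset of −0.60, and each column had a median of 0. The deposited calls for well above background and for outliers were used as given.

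Outlying spots were left out and the spots of a probe were averaged as log2 values. Names came from accessions and symbols of GRCm38.p6. The brightest probe stood for a gene, which counts as measured where both arrays read that probe well above background. A gene found on 1 array only got a lower bound, against the higher of its own signal and the lowest signal well above background on the other array. The scaling was tested on simulated data, which cannot show whether it suits these arrays. The members and lists were chosen with earlier results of these data known. Named genes are all 10 members and the list genes past 2-fold; other list genes named were chosen after their values were seen. The alternatives changed the scaling (all non-control probes, median centring, quantile, loess, and, added later, none), the background (normexp or none), the filter on dim probes, the probe that stands for a gene, and the source (series matrix). Normexp correction used limma 3.58.1 with an offset of 50, and loess used statsmodels 0.14.6 with a span of 0.3. All values are limited in precision by the number of arrays.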

Additional observations from a re-analysis of the deposited data

How the results depend on the processing

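Over 12 alternatives, Ier2 and Nr4a1 were at least 2-fold higher wherever they had a value, Ier2 in 11 and Nr4a1 in 12, with lowest differences of 1.07 and 1.03. The Fos and Jun genes were below 0 in all of these that gave them a value, and Atf3 changed sign. Alternatives that change only the probe or the filter on dim probes cannot move these differences, since each member has 1 probe. The count of members at least 2-fold lower was 1 with median centring, with scaling over all non-control probes and with the series matrix values (Fosb in each), and 1 with no filter on dim probes (Egr2, at its surrogate). Of all genes, 9.31%, 10.2%, 10.1% and 8.73% were at least 2-fold lower in these settings, in the same order. The median difference of the members was −0.053 with loess, −0.40 with median centring, −0.44 with scaling over all non-control probes and −0.44 with the series matrix values. With no scaling between the arrays, an alternative chosen after seeing the data, it was 0.16, with 7 of 9 members above 0 and 3 at least 2-fold higher. In that setting 19.2% of all measured genes were at least 2-fold higher, and the median of all measured genes was 0.42, above that of the members. Relative to the median of all measured genes, the members' median was −0.26 as reported, which no constant scaling can change, but −0.045 with loess, −0.125 with quantile normalization, −0.136 with normexp correction and −0.157 with no background subtraction. The median of all genes was 0.02 as reported, −0.18 by the series matrix or with scaling over all non-control probes, and −0.14 after median centring. The background share of genes at least 2-fold higher was 10.0% as reported and 4.01% with normexp correction, and of genes at least 2-fold lower 6.84% and 4.15%. No paired analysis was possible because there is 1 array per group, and for the same reason no replicate could be left out.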

Other observations

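A transcript read from the opposite strand of the Jund locus differed by more than Jund itself. Its probe, listed as ENSMUST00000116172, lies on the minus strand at chr8:73223801-73223860 (mm9), 0.635 kb from the plus-strand Jund probe. It had an intensity of 237 on the DAC array, against 469 on the PBS array, well above background on both, and a log2 difference of −1.38 ± 0.15 (SD from repeated spots). Over the processing alternatives this difference ran between −1.58 and −1.19, and without scaling it was −0.99. Jund had a difference of −0.26. This transcript was singled out after its value was seen.

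Genes near the members went both ways. Within 100 kb of the 10 probes lay the probes of 59 other measured genes, 10 of them past 2-fold higher and 4 past 2-fold lower (23.7% in all), against 16.9% of all measured genes. Near Ier2, 5 measured neighbours had a median difference of 0.39 and none passed 2-fold. Near Egr1, Reep2 had a difference of 1.00 and Kdm3b one of −1.60 among 7 neighbours, and the median was −0.04. Near Fosb, 3 of 6 neighbours were at least 2-fold higher, Ercc2 (2.10), Cd3eap (1.32) and Eml2 (1.19), while Fosb had a difference of −0.92. These genes too were singled out after their values were seen.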
